A study of Homo sapiens with 47 samples.

Results

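Of the classical cadherin family, 10 genes, *CDH1*, *CDH2*, *CDH3*, *CDH4*, *CDH6*, *CDH7*, *CDH8*, *CDH10*, *CDH11* and *CDH12*, were followed through the differentiation of human embryonic stem cells (hESCs) and the passaging of the resulting progenitors. The 10 genes were taken by name from the 58051 genes of the files. All 10 had an entry for each of the 47 libraries and passed the filter on low counts. The lowest level over the libraries was 0 for *CDH1*, *CDH10* and *CDH12*. The cells were of WA09 (H9), an established hESC line. Undifferentiated cells were the t0 group. Cells kept for 36 h in N2B27 medium without vitamin A and with CHIR-99021 (a WNT pathway agonist), rhFGF2, AGN193109 (an inverse agonist of retinoic acid receptors) and Y-27632 (a ROCK inhibitor) were the 36 h group, called neuromesodermal progenitor (NMP)-like. They were then passaged under these factors to P10, and each passage was sampled. The paper describes P1 cultures as heterogeneous, some cells still NMP-like, and P5 cultures as pre-neural progenitors (PNPs) with neural crest (NC).

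There were 3 experiments, each numbered as a replicate, with 35 libraries of whole cultures (3 at each of the 12 time points, but 2 at P9). In addition, 12 libraries came from P5 and P8 cultures that had been split with TrypLE into an epithelial fraction (EPI, the PNPs) and a mesenchymal fraction (MES, the NC cells), with 3 of each. The fractions were enrichments by detachment, not sorted populations, and all libraries came from 1 line. The libraries held 13029462 to 64082803 estimated counts. Levels are given as normalized counts, the estimated counts divided by a library size factor. TPM values, which are scaled to transcript length and library size, are used wherever genes are compared with each other. In these bulk samples, fewer cells of a type and less RNA per cell cannot be told apart.

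Classical cadherins are single-pass membrane proteins that hold neighbouring cells together by calcium-dependent binding of their extracellular domains, and their cytoplasmic tails bind catenins that link them to actin. Type I members (*CDH1*, *CDH2*, *CDH3* and *CDH4*, encoding E-, N-, P- and R-cadherin) and type II members (the others) differ in the extracellular domain that makes the contact. Exchange of E-cadherin for N-cadherin accompanies gastrulation and neural induction, and type II members such as *CDH6* and *CDH11* are known from neural crest and mesenchyme. The E-box CAGGTG is a known binding sequence of SNAI and ZEB repressors of *CDH1*.

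The labels were checked first. The summed level of 4 hESC markers was 2992 to 3361 TPM at t0 and 3.58 to 10.1 TPM at P8. *SOX10*, a defining NC gene, stood at 3.69, 7.67 and 24.1 TPM in the P5 mesenchymal libraries, at 0.54 to 2.49 TPM in the P5 epithelial ones and at 1.05 to 13.8 TPM in whole cultures at P5, and muscle markers (3 of 3) were below 0.5 TPM in every library. Replicates of a group often differed in the markers, and replicate 1 was the library apart at several time points. *POU5F1*, a pluripotency gene, was at 863, 18.7 and 5.07 TPM in P1 replicates 1 to 3 and at 23.7, 0.39 and 0.51 TPM in those of P2. *SOX2*, a gene of pluripotent and neural progenitor cells, was at 217, 21.3 and 4.14 TPM at 36 h and at 214, 0.5 and 0.71 TPM at P10. *TWIST1*, a mesenchymal gene, was at 4.12, 157 and 214 TPM at P3, and at 9.93, 77.4 and 257 TPM in the P8 epithelial fraction. The calls of 36 h, P1, P2, P3 and P10 against t0 were repeated without replicate 1 of that time point. All were kept except that of *CDH10* at P1, which changed from 3.72 (log2, adjusted p = 0.0056) to 2.76 (adjusted p = 0.029).

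A member was called changed in a comparison when the quasi-likelihood test of edgeR, with p-values adjusted by Benjamini-Hochberg over all genes, gave a false discovery rate below 1%, the fold change was at least 2 and the mean was at least 100 normalized counts. Where nothing else is said, every adjusted p below is from that edgeR test. *CDH2* stood at 39.5, 30.3 and 38.6 TPM at t0, and at 129, 248 and 314 TPM at 36 h. The 2 groups did not overlap. The plot of members by time shows the levels of all 10.

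**Figure D1:**
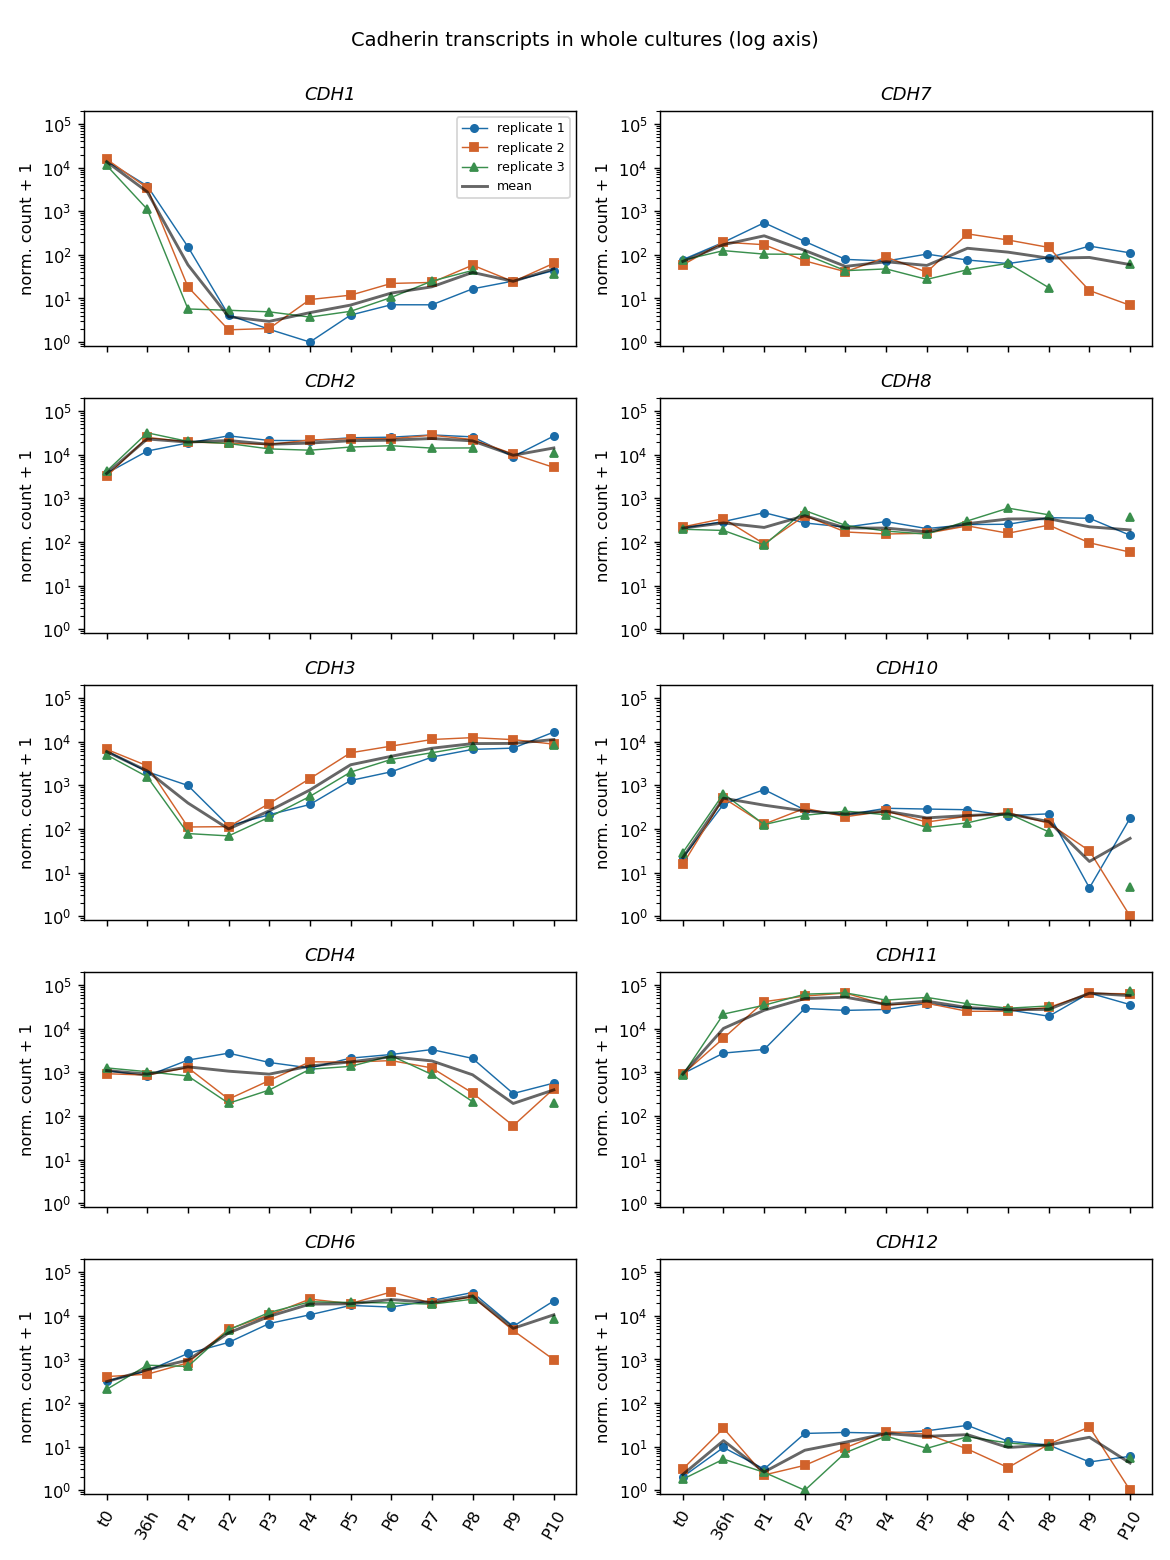
Normalized counts plus 1 (y, log axis) of the 10 cadherins in the whole cultures against time (x), with 1 symbol and line for each replicate and a dark line for the mean. *CDH1* drops from t0 to P1, *CDH6* climbs from P2, *CDH3* dips and returns, and *CDH7*, *CDH8* and *CDH12* show no steady course. P9 has no replicate 3.

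Over the 11 time points after t0, members were called 52 times against t0. The background, the share of all genes called, was 2.71% at 36 h, 8.79% at P1, 12.8% at P2, 13.6% at P3, 14% at P4, 14.3% at P5, 14.6% at P6, 15.2% at P7, 15.4% at P8, 19.7% at P9 and 18.3% at P10. The share of genes called higher than at t0 was 1.33% at 36 h, 3.42% at P1, 5.89% at P2, 5.8% at P3, 6.22% at P4, 6.44% at P5, 6.68% at P6, 7.26% at P7, 7.66% at P8, 10.3% at P9 and 9.5% at P10. The share called lower was 1.37% at 36 h, 5.37% at P1, 6.94% at P2, 7.83% at P3, 7.78% at P4, 7.85% at P5, 7.91% at P6, 7.9% at P7, 7.75% at P8, 9.41% at P9 and 8.79% at P10. *CDH1* was lower at 10 of 11, *CDH11* higher at 11 of 11, *CDH2* higher at 10 of 11 and *CDH6* higher at the 9 from P2 on. *CDH3* was lower at 4, P1 to P4, and *CDH10* higher at 7. *CDH4* was lower at 1, P9. *CDH7*, *CDH8* and *CDH12* were not called at any of them.

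*CDH1*, E-cadherin, had 14227, 15595 and 11262 normalized counts at t0 and 3814, 3437 and 1110 at 36 h. At P1 the libraries held 152, 17.4 and 4.74. All libraries of each group lay below those of the group before. The difference of 36 h from t0, -2.38 ± 0.66 (log2 ± SE), missed the threshold (adjusted p = 0.019), whereas the step to P1 was called, at -5.70 ± 0.80 (adjusted p = 0.00022). Without P1 replicate 1 it was -8.20 (adjusted p = 4.4e-07), and the difference of P1 from t0 went from -8.08 to -10.51. The call of P1 against 36 h was lost when all libraries of replicate 2 (-5.07, adjusted p = 0.13) or of replicate 3 (-5.32, adjusted p = 0.031) were left out, and in a fit of only the compared groups (adjusted p = 0.2). The lowest means were 2.82 at P2 and 1.98 at P3 normalized counts, from 1 to 5 estimated counts in each library. *CDH1* then stood at 15.6, 57.1 and 42.9 normalized counts at P8, above the libraries of P3 (0.96, 1.05 and 3.93), and against t0 it was still lower by 352-fold (log2 -8.46 ± 0.89, adjusted p = 6.1e-08). In TPM it stayed at 0.3 to 1.12 at P8.

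*CDH2*, N-cadherin, had 3744, 3183 and 4172 normalized counts at t0 and 12133, 24987 and 31758 at 36 h. The change was 2.70 ± 0.40 (adjusted p = 8.7e-05, 6.49-fold). The mean ranged from 17330 at P3 to 23522 at P7 between 36 h and P8, and neighbouring groups in this order overlapped. At P8 it was 5.53-fold higher than at t0 (adjusted p = 2.2e-05).

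*CDH3*, P-cadherin, fell and came back. It had 6139, 6711 and 5002 normalized counts at t0, 117, 112 and 68.3 at P2, and 6679, 12435 and 8092 at P8. The P2 libraries lay far below those of both other groups, while those of P8 and t0 overlapped. It was called lower at P1 to P4, with a difference of -5.90 ± 0.76 at P2 (adjusted p = 2.1e-06) and of -3.90 ± 0.70 at P1 (adjusted p = 0.00017), the latter -6.12 without P1 replicate 1, and the P8 difference from t0 was 0.61 ± 0.61 (adjusted p = 0.43). Between P1 and P5 it rose by 2.81 ± 0.68 (adjusted p = 0.006). Summed surface ectoderm markers (4 genes) were 0.71 to 0.76 TPM at t0, 1.43 to 2.67 TPM at P5 and 8.87 to 111 TPM at P8, with *KRT5* and *KRT14* below 0.5 TPM in all of these libraries. The sum was 6.59 to 9.55 TPM at P1, where *CDH3* held 992, 110 and 77.4 normalized counts. At P9 it was 5.82 and 14.5 TPM, where *CDH3* held 7144 and 11189. At P10 it was 31.6, 1.64 and 12.3 TPM, where *CDH3* held 16727, 8808 and 8215. The part of these markers in the *CDH3* levels was not tested.

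*CDH4*, R-cadherin, ranged from 58.9 normalized counts in P9 replicate 2 to 3339 in P7 replicate 1. Replicates were close at t0 and at P6 (2574, 1864 and 2410) but lay far apart at P2 (2763, 243 and 195) and P8 (2094, 336 and 213). At P9 it held 327 and 58.9 against 1100, 932 and 1268 at t0, lower by 3.19 ± 0.80 (adjusted p = 0.0019), with no overlap. The 5 summed pre-neural markers were 465, 98.2 and 102 TPM at P2 and 716, 246 and 158 TPM at P8. They were 197 to 212 TPM at t0, 709, 579 and 414 TPM at P6, and 15.4 and 15.7 TPM at P9. At t0 most of the sum was *SOX2*, which pluripotent cells also express, at 173 to 193 TPM. *CDX2*, another of the 5, was below 0.5 TPM in every t0 library. At P10 the 5 markers summed to 425, 4.49 and 3.16 TPM, where *CDH4* held 569, 423 and 199 normalized counts. The part of these markers in the *CDH4* levels was not tested.

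*CDH6*, K-cadherin, had 316, 404 and 205 normalized counts at t0, 546, 457 and 736 at 36 h and 1370, 837 and 691 at P1. The 3 groups followed each other upwards, with 36 h and P1 overlapping. At P2 it held 2458, 4934 and 4778 and at P4 10581, 24207 and 21070. The rise from P1 to P5 was 4.33 ± 0.65 (adjusted p = 1e-04, 20.1-fold), and the difference of P8 from t0 was 6.56 ± 0.73 (94.6-fold, adjusted p = 1.4e-07).

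*CDH11*, OB-cadherin, was low at t0, with 934, 911 and 884 normalized counts, and had 2774, 6092 and 21771 at 36 h. The replicates of 36 h spread from 2774 to 21771 around a change of 3.19 ± 0.54 (adjusted p = 0.00036), or 2.15 to 3.88 over the alternatives. The 5 summed paraxial mesoderm markers took the same order there, at 8.83, 132 and 632 TPM in replicates 1 to 3, and were 7.13 to 9.51 TPM at t0. *CDH2* (12133, 24987 and 31758 normalized counts) and *CDH10* (366, 511 and 642) also took this order at 36 h. At P1 *CDH10* took the reverse order, at 797, 128 and 125. At P1 the markers were 7.6, 396 and 487 TPM, where *CDH11* held 3361, 41968 and 34732 normalized counts, so both were lowest in replicate 1. At P2 (308, 103 and 125 TPM) and P3 (366, 16 and 30.4 TPM) the markers were instead highest in replicate 1. *CDH11* was lowest in that replicate, at 29311, 56370 and 62259 normalized counts at P2 and 26440, 66266 and 66694 at P3. At P8 the markers were at 2.14 to 8.46 TPM while *CDH11* stayed high. The part of these markers in the cadherin levels from 36 h to P3 was not tested. From P1 on, *CDH11* means ran from 26687 at P1 to 65555 at P9. P8 was 29.3-fold above t0 (adjusted p = 3.8e-07).

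Among the members at low levels, *CDH10*, a type II cadherin of the nervous system, had 20.8, 14.5 and 27.8 normalized counts at t0 and 366, 511 and 642 at 36 h, without overlap (4.65 ± 1.02, adjusted p = 0.0036). *CDH7* lay between 5.96 and 544 and *CDH8* between 57.2 and 593 over the 47 libraries. *CDH12* never exceeded 36.1. Against t0, *CDH12* had an adjusted p of 0.0044 at P4, 0.0069 at P5 and 0.0066 at P6, but its means over the compared libraries, at most 10.1 normalized counts, were under the minimum. At P9 and P10 *CDH10* was back at 0 to 30.5 normalized counts except in P10 replicate 1, which held 176. When the 12 time points were ordered by mean level, neighbours whose libraries did not overlap numbered 3 of 11 for *CDH6*, 2 of 11 for *CDH1* and *CDH3*, 1 of 11 for *CDH2* and *CDH11*, and 0 of 11 for the rest. The order came from the same values, and no such count was made over all genes. These numbers therefore only describe the members.

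The successive steps carried few further calls. At 36 h against t0, 3 of 10 members were higher and none lower (2.71% of 21750 genes were called, 1.33% higher and 1.37% lower). All 3 calls were lost without replicate 2 (adjusted p = 0.021 for *CDH2*, 0.072 for *CDH10* and 0.045 for *CDH11*) and without replicate 3 (0.028, 0.11 and 0.13). Those fits called 0.368% and 0.436% of genes. Over all alternatives the log2 difference was 2.48 to 3.09 for *CDH2*, 4.47 to 5.04 for *CDH10* and 2.15 to 3.88 for *CDH11*. From 36 h to P1, *CDH1* alone was called, where the background was 1.19%, with 0.492% higher and 0.699% lower. Without P1 replicate 1, *CDH3* (-4.60, adjusted p = 6.4e-06) and *CDH11* (1.97, adjusted p = 0.0022) joined it, in a fit that called 809 genes (3.72%). The fits in which *CDH1* lost its call found 0.00888% of genes without replicate 2, 0.0568% without replicate 3 and 0% with only the compared groups. From P1 to P5, 2 members were called, *CDH3* and *CDH6* (background 4%, with 2.15% higher and 1.86% lower). Without P1 replicate 1 both kept their call, *CDH3* at 4.96 (adjusted p = 3.1e-06) and *CDH6* at 4.66 (adjusted p = 0.00032). The call of *CDH3* was lost without all of replicate 2 (1.75, adjusted p = 0.23), without all of replicate 3 (2.23, adjusted p = 0.17) and with only the compared groups (adjusted p = 0.23). That of *CDH6* was lost without replicate 3 (4.05, adjusted p = 0.036) and with only the compared groups (adjusted p = 0.025). Of all genes, 0.466% were called without replicate 2, 0.507% without replicate 3 and 0.0115% with only the compared groups. From P5 to P8 no member was called, and 2 of all genes were (0.0092%, with 0.0046% in each direction). In that comparison 3 members and 2892 genes had an unadjusted p below 0.05, and DESeq2 called 155 genes and no member. The largest of the member differences were *CDH1* at 2.70 ± 0.92 (adjusted p = 0.18), from 4, 10 and 4 estimated counts at P5, and *CDH3* at 1.70 ± 0.62 (adjusted p = 0.22).

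Against t0, 4 of 10 members were called at P8 (15.4% of genes were, 7.66% higher and 7.75% lower), *CDH2*, *CDH6* and *CDH11* higher and *CDH1* lower. The median log2 difference was 1.57 over the 10 members and 0.02 over all genes tested. At 36 h these medians were 1.07 and 0.

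**Figure D2:**
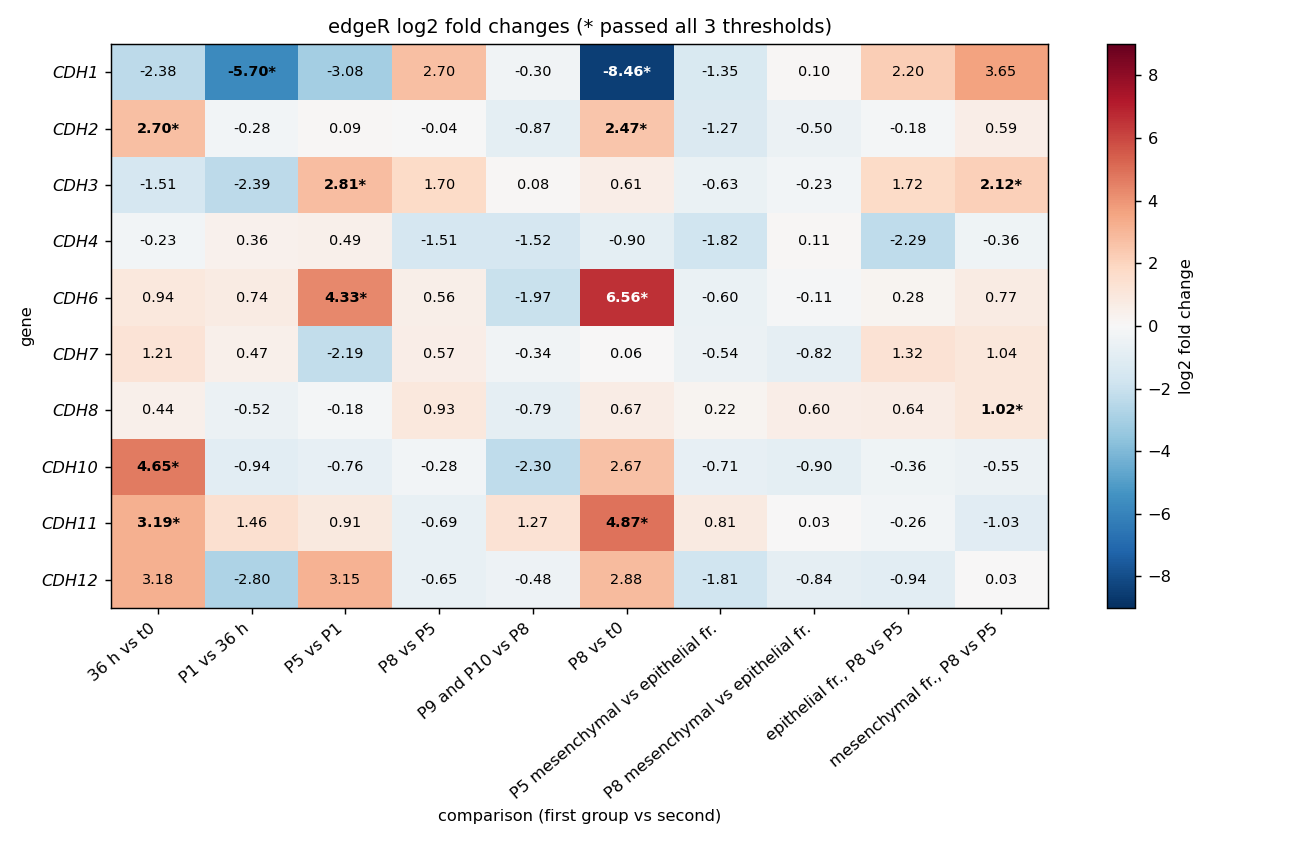
edgeR log2 fold changes (colour and number, positive where the first group is higher) of the 10 cadherins (y) in 10 comparisons (x), where an asterisk marks a call. The strongest called values are -8.46 for *CDH1* and 6.56 for *CDH6* at P8 against t0.

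Comparing P9 and P10 with P8, no member passed, 5 members and 5708 genes had an unadjusted p below 0.05, 271 of 21750 genes were called (1.25%, with 0.772% higher and 0.474% lower), and DESeq2 called 740 genes, 1 of them a member. *CDH6* held 34306, 27206 and 24083 normalized counts at P8, 5737 and 4617 at P9, and 22104, 984 and 8690 at P10. The 2 libraries of P9 lay below all those of P8, as did those of P10, though replicate 1 was close. The difference was -1.97 ± 0.51 (adjusted p = 0.017). *CDH2* was at 9057 and 10358 at P9 and 26876, 5096 and 10888 at P10, against 25657, 22303 and 14298 at P8 (-0.87 ± 0.34, adjusted p = 0.095). *CDH11* went the other way, at 66104 and 65006 at P9 and 35887, 63546 and 73383 at P10 against 19427, 30938 and 33418 at P8, with no overlap (1.27 ± 0.46, adjusted p = 0.078). Without P10 replicate 1, 1007 genes (4.64%) were called, *CDH6* (-2.55, adjusted p = 0.00038) and *CDH2* (-1.20, adjusted p = 0.0062) among them. *CDH10* then had an adjusted p of 5.9e-05 but a mean below the minimum. The 5 summed pre-neural markers were 158 to 716 TPM at P8, 15.4 and 15.7 TPM at P9, and 425, 4.49 and 3.16 TPM in P10 replicates 1 to 3. The P10 library with the highest marker sum was also the one highest in *CDH2* and *CDH6*. *SNAI2*, a regulator known from NC, was at 47.2, 87.8 and 112 TPM at P8, 468 and 248 TPM at P9, and 52, 270 and 368 TPM at P10. The 8 summed NC markers, *SNAI2* among them, overlapped, at 241, 546 and 877 TPM at P8, 761 and 725 TPM at P9, and 315, 561 and 706 TPM at P10. Of these 8 genes none was called, with a median log2 difference of -0.16, and *SOX10* had a mean of 5.73 TPM at P8, 0.88 TPM at P9 and 0.517 TPM at P10. *TWIST1* was at 18.6 to 131 TPM at P8, 460 and 528 TPM at P9, and 66.4, 489 and 411 TPM at P10. The part of these cell type markers in the cadherin values was not tested.

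Per transcript length, the leading cadherin changed. At t0 *CDH1* made up 50% ± 2.84 (SD, n = 3) of the summed TPM of the 10 members, *CDH3* 28.1% ± 1.27 and *CDH2* 12% ± 2.39. At 36 h *CDH2* led with 47.9% ± 7.26, though in replicate 3 *CDH11* held 49% and *CDH2* 42.6%. From P2 on *CDH11* led in every library, with 74.4% ± 12.3 at P2, 63.1% ± 7.9 at P5, 45.5% ± 11.7 at P8 and 81.4% ± 2.57 at P9 (n = 2). At P1 it led in 2 of 3, with 76.3% and 72.3%, and *CDH2* led in replicate 1 with 59.1%. The summed level of the 10 members rose from 304 ± 29.7 TPM at t0 to 1171 ± 57.8 TPM at P8. The share of type I members went from 92.6% at t0 to a low among whole cultures of 15.7% at P9, and was 11.2% in the P5 mesenchymal fraction.

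**Figure D3:**
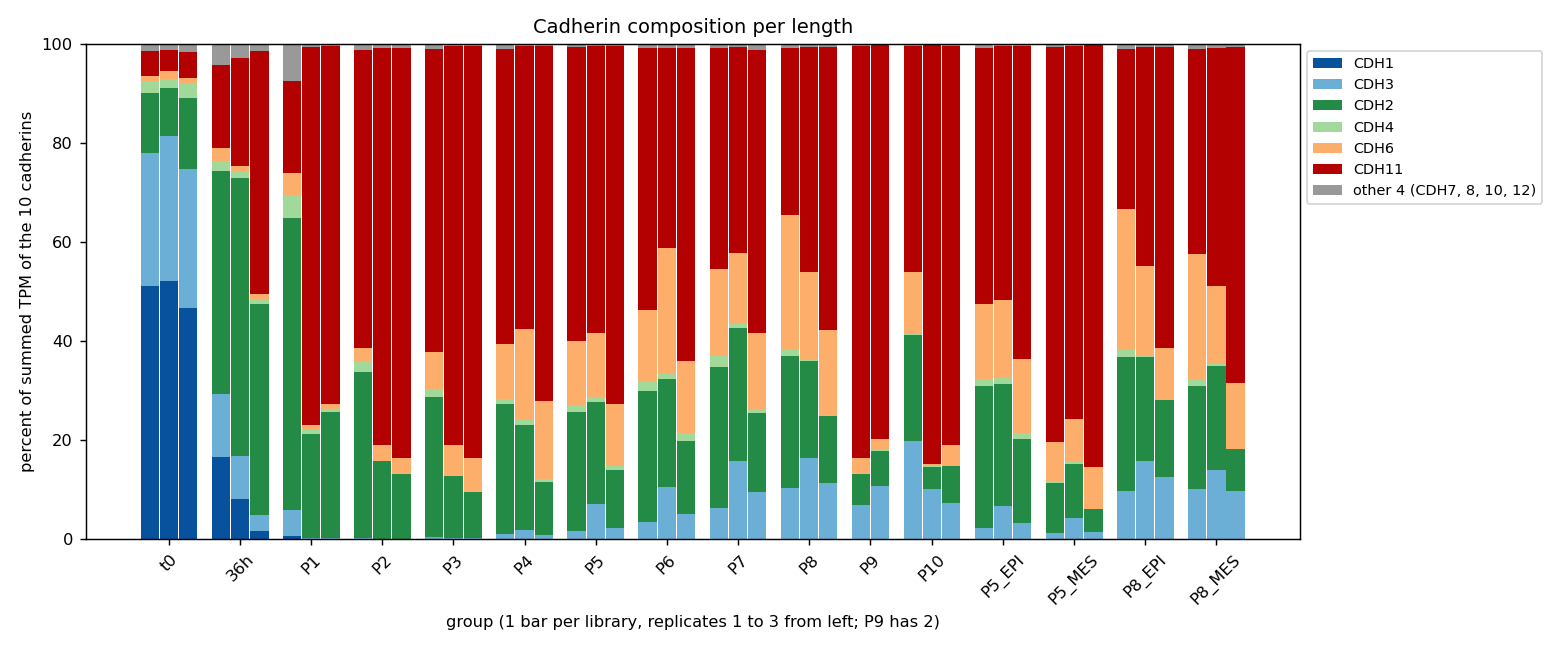
Share (y, percent) of each cadherin in the summed TPM of the 10 members, with 1 bar for each library and groups along x. *CDH1* is the largest at t0 with 46.7% to 52.1%, and *CDH11* is the largest in every library from P2 on.

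The fractions were compared within each passage. At P5, *CDH2* held 25933, 29576 and 22718 normalized counts in the epithelial fraction and 13176, 14662 and 6236 in the mesenchymal fraction. All 3 mesenchymal libraries lay below all 3 epithelial ones (-1.27 ± 0.21, adjusted p = 0.017). *CDH4* (2115, 2330 and 2126 against 942, 961 and 361, -1.82 ± 0.64, adjusted p = 0.12) and *CDH6* (16888, 24336 and 24965 against 13219, 15075 and 15341, -0.60 ± 0.26, adjusted p = 0.19) also did not overlap, on the same side. *CDH11* lay the other way, with 28403, 36327 and 47539 in the epithelial and 61966, 58470 and 67122 in the mesenchymal fraction (0.81 ± 0.20, adjusted p = 0.045). No member passed the threshold, as 0 of 18885 genes did (0%), although 4894 genes, 7 members among them, had an unadjusted p below 0.05. DESeq2 called 674 genes and *CDH2* among the members (adjusted p = 5.2e-07). The 0% rests on the fit, since edgeR with the split culture as the block called 305 genes (1.62%), and without the count filter 82 genes (0.235%). With the culture block no member was called.

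At P8 *CDH2* held 24965, 25523 and 19685 in the epithelial and 20550, 22476 and 9508 in the mesenchymal fraction, lower in 3 of 3 cultures but overlapping (-0.50 ± 0.21, adjusted p = 0.40). *CDH11* differed by 0.03 ± 0.20 (adjusted p = 0.96). No member and no gene passed (0%), 3 members and 2261 genes had an unadjusted p below 0.05, and DESeq2 called 55 genes and no member. Without replicate 3 in both fractions, again no member and no gene was called (0%). The difference between P8 and P5 in the fraction effect was 0.78 ± 0.29 for *CDH2* and -0.77 ± 0.28 for *CDH11* (adjusted p = 0.82 for both), with 1152 genes at an unadjusted p below 0.05, none called by edgeR (0%) and 1 by DESeq2.

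*CDH10* was lower in the mesenchymal fraction in 3 of 3 cultures at P5 (324, 182 and 142 against 230, 100 and 79.3) and in 3 of 3 at P8 (242, 151 and 113 against 148, 92.1 and 45), with overlapping ranges at both and adjusted p = 0.051 and 0.26.

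The 8 summed NC markers were 157 to 228 TPM in the P5 epithelial and 286 to 441 TPM in the P5 mesenchymal libraries, and 211 to 729 against 360 to 945 TPM at P8. The 5 pre-neural markers were 470 to 742 against 88.3 to 261 TPM at P5 and 182 to 667 against 50 to 456 TPM at P8. These summed ranges were apart at P5 and overlapped at P8. Within each P8 culture the pre-neural sum was lower in the mesenchymal fraction (667, 271 and 182 against 456, 179 and 50 TPM). The NC sums of these cultures went both ways (211, 569 and 729 against 360, 504 and 945 TPM). *SOX10* ranges were apart at P8, at 0.41 to 1.2 TPM in the epithelial and 2.99 to 8.21 TPM in the mesenchymal libraries. The part of these markers in the cadherin values was not tested.

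**Figure D4:**
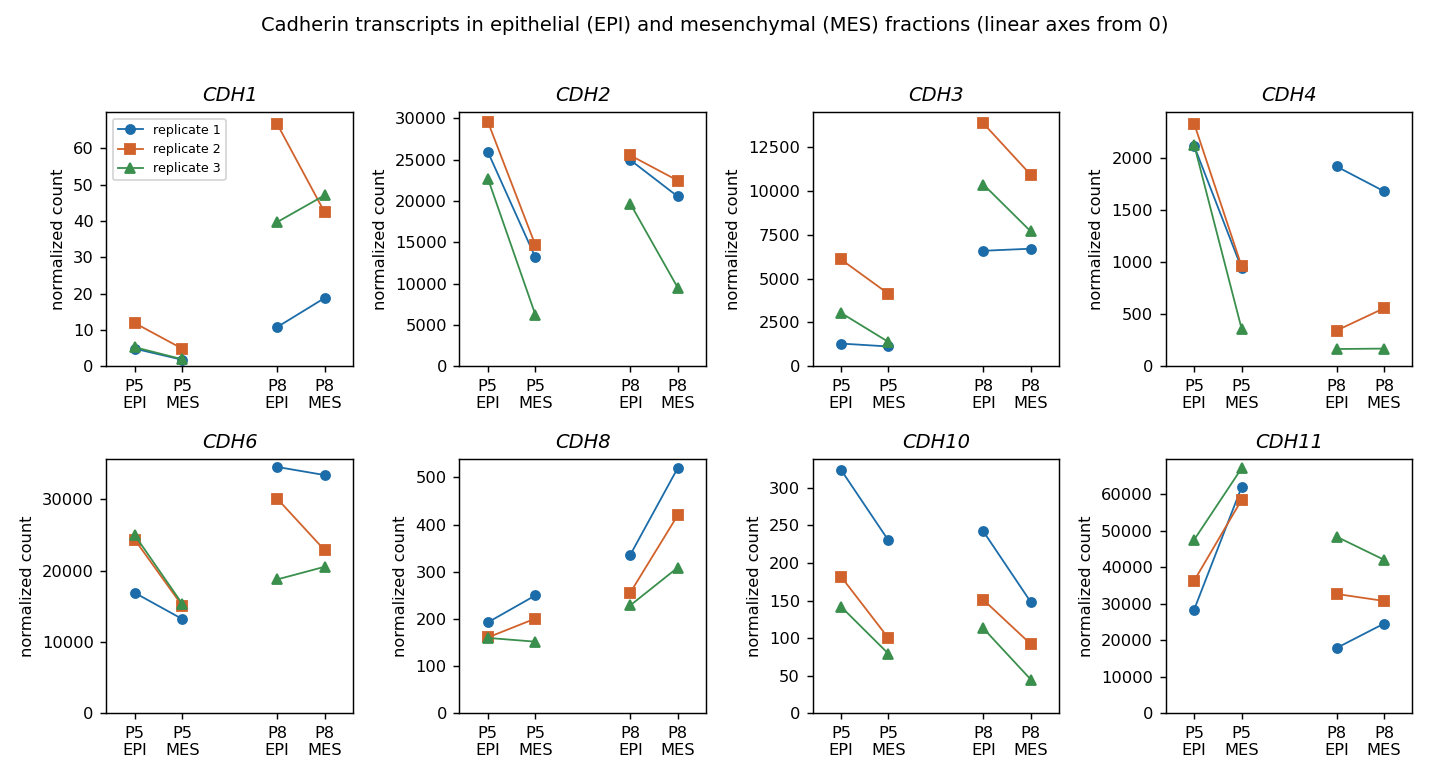
Normalized counts (y, linear from 0) of 8 cadherins in epithelial (EPI) and mesenchymal (MES) fractions at P5 and P8 (x), with a line joining the fractions of 1 culture. At P5 *CDH2* lies lower and *CDH11* higher in the mesenchymal fraction in 3 of 3 cultures.

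Between passages, the mesenchymal fraction at P8 held more *CDH3* than at P5, with 6707, 10912 and 7688 against 1131, 4133 and 1389 normalized counts (2.12 ± 0.30, adjusted p = 0.0083). The summed surface ectoderm markers were 0.62 to 1.65 TPM in the mesenchymal fraction at P5 and 8.11 to 80.7 TPM at P8, and 1.97 to 2.79 TPM and 9.86 to 126 TPM in the epithelial fraction, without overlap in either, and their part in the *CDH3* values was not tested. *CDH8* was also higher in the mesenchymal fraction at P8, at 520, 420 and 309 against 250, 201 and 152 (1.02 ± 0.14, adjusted p = 0.0076). Neither pair of groups overlapped, and these 2 were the members called (0.699% of genes were, 0.582% higher and 0.116% lower). Both calls were lost without the replicate block, at adjusted p = 0.11 and 0.068, and on leaving out any replicate, at adjusted p = 0.017 to 0.12 and 0.023 to 0.16. Of all genes, the fit without the block called 0.0053%, and those without replicate 2 or replicate 3 called 0%. The fit without replicate 1 still called 219 of 18833 genes. *CDH1* also differed, at 18.8, 42.4 and 47.1 against 1.8, 4.86 and 1.94 normalized counts, without overlap (3.65 ± 0.47, adjusted p = 0.0069), but its mean of 19.5 was under the minimum and the P5 libraries held 2, 5 and 2 estimated counts. *CDH11* was 24584, 30804 and 42086 at P8 against 61966, 58470 and 67122 at P5, lower in 3 of 3 (-1.03 ± 0.20, adjusted p = 0.02). In the epithelial fraction no member was called (0.259% of genes were, 0.228% higher and 0.0318% lower), 5 members and 5918 genes had an unadjusted p below 0.05, and DESeq2 called 606 genes, 2 of them members, *CDH3* and *CDH4*. *CDH8* was higher at P8 there too, at 336, 256 and 229 against 193, 161 and 160, without overlap (0.64 ± 0.14, adjusted p = 0.031). *CDH4* held 1918, 343 and 166 against 2115, 2330 and 2126, lower without overlap (-2.29 ± 0.68, adjusted p = 0.065). *CDH3* there held 6588, 13852 and 10366 against 1297, 6094 and 3045, without overlap (1.72 ± 0.29, adjusted p = 0.019). Without P8 epithelial replicate 3 this was 1.59 (adjusted p = 0.083), without replicate 1 it was 1.66 (adjusted p = 0.018), and no member was called in either fit. Of all genes, the fit without replicate 3 called 0.0104% and that without replicate 1 called 1.52%.

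The effective length that RSEM gave a gene, an average over its transcripts weighted by their levels, also moved. For *CDH6* it was 3605, 3069 and 3148 bases at t0 and 4873, 4926 and 5046 bases at P8, without overlap. For *CDH11* it was 2264, 2442 and 2284 bases at t0 and 2211, 2177 and 2115 at P8. These lengths enter TPM but not the normalized counts, and no test was made on them.

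**Figure D5:**
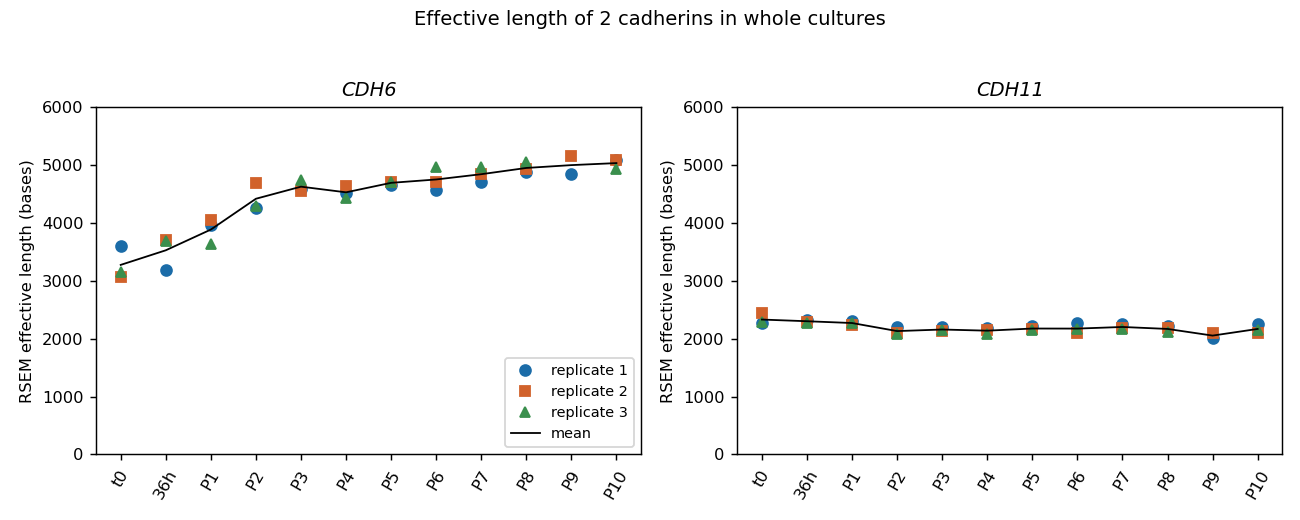
RSEM effective length in bases (y) of *CDH6* and *CDH11* in whole cultures by time (x), with points for replicates and a line for the mean. *CDH6* goes from a mean of 3274 bases at t0 to 4948 bases at P8.

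Other genes of the pathway, in lists, were counted for P8 against t0, where 15.4% of all genes were called (7.66% higher, 7.75% lower). Of 8 further classical cadherins, 2 were called, both higher, *CDH20* (6.09 ± 1.32) and *CDH24* (1.25 ± 0.35). The median log2 difference over these 8 was -1.14. Of 14 catenins and junction partners, 2 were called, both lower, *CTNND2*, a delta-catenin (-2.31 ± 0.55), and *NECTIN3*, a nectin (-1.20 ± 0.18). *CTNNB1*, encoding beta-catenin, differed by 0.10 ± 0.17 (adjusted p = 0.64). Of 6 regulators of cadherin transcription, 4 were higher (*SNAI2*, *ZEB1*, *ZEB2* and *TWIST1*) and 1 lower. The latter, *GRHL2*, an epithelial activator, had 9.06 to 11.8 TPM at t0 and at most 0.02 TPM at P8. At 36 h *SNAI2*, *ZEB1* and *ZEB2* were already called higher, against 1.33% of all genes.

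The genes most like each member were sought by Pearson's r of log2(normalized count + 1) over the 47 libraries, which share experiments and 1 line, among 13297 genes with a mean of at least 100. *CDH1* was most like *TGIF1* (r = 0.94), *CARMIL2* (0.94) and *KDM6A* (0.93). *CDH2* was most like *SALL1* (0.90), *SLIT2* and *CDX2* (0.88 each). *CDH3* came closest to *PPIC* (0.93), *MYOZ3* and *NFIB* (0.92 each), and *CDH6* to *NOG* (0.96), *LINC02086* and *HOXC10* (0.95 each). For *CDH11* they were *FAM92A* (0.95), *NBPF9* and *ODF2* (0.94 each), and for *CDH4* *GINS2* (0.86), *DEK* (0.85) and *CENPV* (0.84). *CDH10* was most like *NEFL* (0.88), *FGF17* and *SLITRK5* (0.85 each). *CDH7* reached only 0.74 (*TTC7A*), then *P2RX4* and *GMPR2* (0.70 each), and *CDH8* 0.59 (*ZNF554* and *HDAC11*), then *ACTG2* (0.58). Between members, *CDH1* and *CDH11* had r = -0.83, and *CDH2* and *CDH10* 0.71.

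In GENCODE 29 (GRCh38), *CDH3* (chr16:68636189-68722616) and *CDH1* (chr16:68737225-68835548) lie next to each other on the plus strand, 14608 bases apart with no annotated gene between them. Both were low at P2 and P3, but at P8 the libraries of *CDH3* overlapped those of t0 and those of *CDH1* did not. *CDH11* (chr16:64943753-65126112) is on the same chromosome on the minus strand. *CDH6* lies at chr5:31193750-31329146 and *CDH10* at chr5:24487100-24644978. Opposite-strand genes overlap 5.62% of the exon bases of *CDH1* and 11.1% of those of *CDH3*, and reads of such partners cannot be told apart where the counting did not use strand. On the same strand, *DUX4L51* overlaps 8.96% of the exon bases of *CDH6* and *AC010533.1* 1.9% of those of *CDH11*, and strand does not separate their reads.

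RefSeq (GRCh38.p14) start-site windows matched 6 of the 10 members. None matched *CDH1*, *CDH3*, *CDH6* or *CDH11*, so the promoters of these genes were not searched. The 250 bases before each start were searched on both strands for the E-box (CAGGTG, or CACCTG) and for a TCF/LEF core (CTTTGA, or TCAAAG), whose letters cannot overlap. An E-box was in 17.5% and a TCF/LEF core in 11.2% of all 35116 such windows. The windows of *CDH2* and *CDH10*, members that rose together at 36 h, held neither. That of *CDH10* is shown as the upstream sequence of the member with the largest fitted rise at 36 h, on the minus strand at chr5:24644979-24645228, where a match would stand in capitals.

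CDH10: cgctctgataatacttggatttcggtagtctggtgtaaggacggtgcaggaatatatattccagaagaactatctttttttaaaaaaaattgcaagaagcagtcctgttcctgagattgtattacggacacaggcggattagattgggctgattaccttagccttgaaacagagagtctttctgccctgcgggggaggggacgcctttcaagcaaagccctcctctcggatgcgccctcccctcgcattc

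Of the other windows, 1 of *CDH4* held an E-box, and 1 of *CDH8* and 2 of *CDH12* a TCF/LEF core. These are matches of letters only.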

How the data were processed

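RNA of 47 samples was sequenced by the authors after poly(A) selection. Per the labels and the submitters' processing notes, reads were processed with cutadapt 1.16, STAR 2.5.2b and RSEM 1.3.0 against GRCh38, and the authors deposited estimated (expected) counts, TPM and effective lengths per gene. The replicates are separate experiments on 1 line. Counts, of which 9.33% were not whole, were rounded, and gene names came from GENCODE 29 (57447 of 58051 genes).

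Tests used edgeR 4.0.16 (R 4.3.3), glmQLFit and glmQLFTest, with TMM factors, filterByExpr and the replicate number as a block, in a fit of the 35 whole cultures and another of the 12 fractions. The series' design states that each experiment ran through all time points. Deviations from group means correlated at 0.14 on average between same-numbered and -0.07 between different-numbered whole cultures, and at 0.42 against -0.21 for fractions. Such deviations sum to 0 within a group, so the negative values follow largely from the positive ones and are no separate evidence. Same-group libraries all differed by more than sampling noise. Alternatives were DESeq2 1.42.0, other filters, thresholds, scalings, sample sets and blocks. Every member was named, with the 3 genes most like each member of mean at least 100. The members and lists were chosen with earlier results of these data known. Estimated counts carry counting error and the authors' assignment of shared reads.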

Additional observations from a re-analysis of the deposited data

How the results depend on the processing

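The calls of *CDH1*, *CDH2*, *CDH6* and *CDH11* at P8 against t0 were kept in all alternatives run for them (12 for *CDH1*, 13 for each of the others). Other counts of members moved. At 36 h against t0, leaving out a replicate gave 0 to 5 called members (main 3), and a fit of only the compared groups gave 2, losing *CDH2* (adjusted p = 0.013) and *CDH11* (adjusted p = 0.042) and adding *CDH3* (adjusted p = 0.0069). Of all genes, leaving out a replicate called 0.368% to 3.96% and the fit of only the compared groups 0.92% (main 2.71%). From 36 h to P1 (main 1) leaving out a replicate gave 0 to 4, DESeq2 gave 2, a 5% false discovery rate 2, P1 without replicate 1 gave 3, and at least 10 counts in every library or a fit of only the compared groups gave 0. Of all genes, these called, in the same order, 0.00888% to 4.25%, 2.64%, 2.91%, 3.72%, 1.51% and 0% (main 1.19%). From P1 to P5 (main 2), leaving out a replicate gave 0 to 2, and only the compared groups 0. Of all genes, these called 0.466% to 5.48% and 0.0115% (main 4%). From P5 to P8 (main 0), leaving out a replicate gave 0 to 2, where 0% to 0.445% of genes were called (main 0.0092%). Without P8 replicate 1, chosen after seeing the data, it gave 0, as did P8 fractions without replicate 3. Of all genes, these called 0.0736% and 0%. For P9 and P10 against P8 (main 0), DESeq2, a 5% rate and all 47 libraries in 1 fit each gave 1, and leaving out P10 replicate 1 gave 2. Of all genes, these called 3.4%, 3.61%, 2.31% and 4.64% (main 1.25%). The P5 fractions (main 0) gave 1 with DESeq2, no count filter or a 5% rate, which called 3.57%, 0.235% and 2.66% of all genes (main 0%). The epithelial fraction between passages (main 0) gave 2 with DESeq2, 1 with no count filter or a 5% rate, and 0 to 1 on leaving out a replicate. Of all genes, these called 3.21%, 0.456%, 2.61% and 0% to 2.01% (main 0.259%). For the mesenchymal fraction between passages (main 2), the fit without the replicate block gave 0, as did all 47 libraries in 1 fit, only the compared groups, and leaving out any replicate (0 to 0). Of all genes, 0.0053% were called without the block, 0.0546% with all 47 libraries and 0% with only the compared groups (main 0.699%). Leaving out replicate 2 or replicate 3 called 0%, and leaving out replicate 1 called 219 of 18833 genes. The replicate block changed no other count of members by over 1.5 times. Against t0 over 11 time points, 35 to 56 calls were made (main 52). The share of all genes called moved with the setting too. At P8 against t0 it was 8.48% with no count filter and 27.5% with no fold change minimum (main 15.4%). No called value of a member changed direction. Without length correction, the shares moved to 56.5% for *CDH2* at 36 h, and to 48.8%, 32.1% and 72.7% for *CDH11* at P5, P8 and P9. *CDH11* then no longer led everywhere from P2 on, with *CDH6* above it in P6 replicate 2 and in replicate 1 of P8 and of both P8 fractions, and *CDH2* above it in P7 replicates 1 and 2. At P8 the mean was 28532 normalized counts for *CDH6* and 27928 for *CDH11*. The causes were not tested. Leaving out a replicate left 2 libraries a group, and at P9 only 1 when it was replicate 1 or 2, which is assumed to vary like the other groups. Depth limits *CDH1* from P2 to P5, at 0 to 10 estimated counts a library. The fits without single libraries of 36 h, P2, P3, the P8 epithelial fraction, and of P1 and P10 against t0 were chosen after seeing the data.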
